A study of Homo sapiens with 8 samples.

Results

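The interferon-stimulated genes followed here are 40 genes that cells switch on after interferon or viral RNA, taken by gene name from both deposited tables and grouped by role. They cover RNA sensors (3 genes), transcription factors (4), the IFIT (4), OAS (4) and MX (2) families, ISG15 conjugation (5), membrane factors (2) and other effectors (16). All 40 had a row among the 56981 genes of the NCI-H1688 table, where RIGI goes by its older name DDX58, and 37 had a row among the 17169 genes of the NCI-H146 table. NCI-H1688 and NCI-H146 are established human lines labelled small cell lung cancer, grown in the same serum-supplemented medium. Every library came from cells infected with shRNA lentivirus and kept in puromycin for 2 weeks, so the controls carry a hairpin and the drug selection too. Each line had 2 libraries with a control shRNA and 2 with an shRNA against KLF9, a Krüppel-like transcription factor, and poly(A) RNA was sequenced. The labels give the genotype as wild type for the controls and as KLF9 knockdown for the others, and the cell type as epithelial. They do not say how many hairpins were used or whether the selected cells were clones. They speak of biological replicates without naming separate cultures, so p-values measure the spread between these libraries, which may be technical.

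Type I and type III interferons bind their receptors and activate the kinases JAK1 and TYK2, which phosphorylate STAT proteins, STAT2 among them. With IRF9 these form the complex ISGF3, which binds the interferon-stimulated response element (ISRE) in the promoters of its targets. IRF3, IRF7 and IRF1 recognise similar letters, so part of the program can also be driven by virus sensing without secreted interferon. Tumour lines of epithelial origin differ widely in their resting level of these genes.

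KLF9 itself checks the labels. In NCI-H146 it stood at 67.0 and 61.9 CPM in the control libraries and 24.9 and 32.3 CPM with KLF9 shRNA, where CPM are counts scaled to a common library total with TMM factors. It fell by 1.17 on the log2 scale (SE 0.283, edgeR adjusted p = 0.0131), and the adjusted p was 0.255 without control replicate 2 and 0.101 without control replicate 3. In NCI-H1688 it stood at 0.298 and 0.644 TPM (transcript abundance scaled for length) in the controls and 1.95 and 1.60 TPM in the libraries labelled KLF9 shRNA. That difference ran against the label and missed the threshold (log2 fold change 0.92, SE 0.279, limma adjusted p = 0.0952). The control mean of KLF9, 0.471 TPM, was under the 1 TPM needed for testing. It was tested only through its labelled libraries, so its direction there carries no support. No knockdown of KLF9 was thus measured in NCI-H1688, and its libraries are named by their label throughout. Every direction given for that line rests on those labels and would turn if they were exchanged, which was not tested. Totals in NCI-H146 were 15406264 to 16109803 counts per library. Mitochondrially encoded genes took 8.56% of the counts in the first KLF9 shRNA library of NCI-H146 and 0.897% to 1.20% in the other 3. In NCI-H1688 they made up 15.0% and 14.3% of the TPM in the controls and 17.7% and 16.3% in the labelled libraries, and their part in the results of that line was not tested. With them left out of NCI-H146, edgeR still called 0 of the members described here, and the pathway gene PIAS1 lost its call (adjusted p = 0.0518). Each group had n = 2 libraries.

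In NCI-H1688, interferon-stimulated genes were higher in the libraries labelled KLF9 shRNA. Of the 40 genes, 24 rose, 0 fell, 12 were tested and not called, and 4 were too low to test (mean under 1 TPM). A call means an adjusted p under 0.05, over all 14754 genes tested, of which 6.36% were called higher and 9.67% lower. At unadjusted p under 0.05 limma also gave 0 lower members and 26 higher ones, where 34.0% of all genes tested were under that value in either direction. Both labelled libraries lay above both controls for 32 of the 36 tested genes, against 28.9% of all genes tested, and for 0 of the 36 they lay below both, against 33.8%. In either direction, groups were separate for 62.7% of all genes tested. The median log2 fold change of the 36 was 0.83, and that of all genes tested was -0.02. Summed over the 40 genes, the level was 662 and 707 TPM in the controls and 1412 and 1454 TPM in the labelled libraries. In bulk RNA, more cells expressing a gene and more RNA per cell cannot be told apart. Among the 24, the ratio of mean TPM ran from 1.38 for SAMD9 to 8.26 for RSAD2, with 8 genes at 3 or more, 6 from 2 to 3 and 10 under 2. RSAD2, and the uncalled BST2 and SAMD9L, had control means under 1 TPM and were tested only through their labelled libraries. Their direction carries no support, though each is counted among the 32. RSAD2 is also counted in the 24 and in the 8 genes at 3 or more. With any 1 of the 4 libraries left out, the members lost their calls in limma, in fits that called few or no genes at all. Their median log2 fold change was 0.80 to 0.90 in those fits, and that of all genes tested was -0.03 to -0.02. Under limma without a trend 19 of the 24 passed, and IFI6, MX1, PARP14, SAMD9 and TRIM22 missed the threshold at adjusted p 0.0567 to 0.0748.

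**Figure D1:**
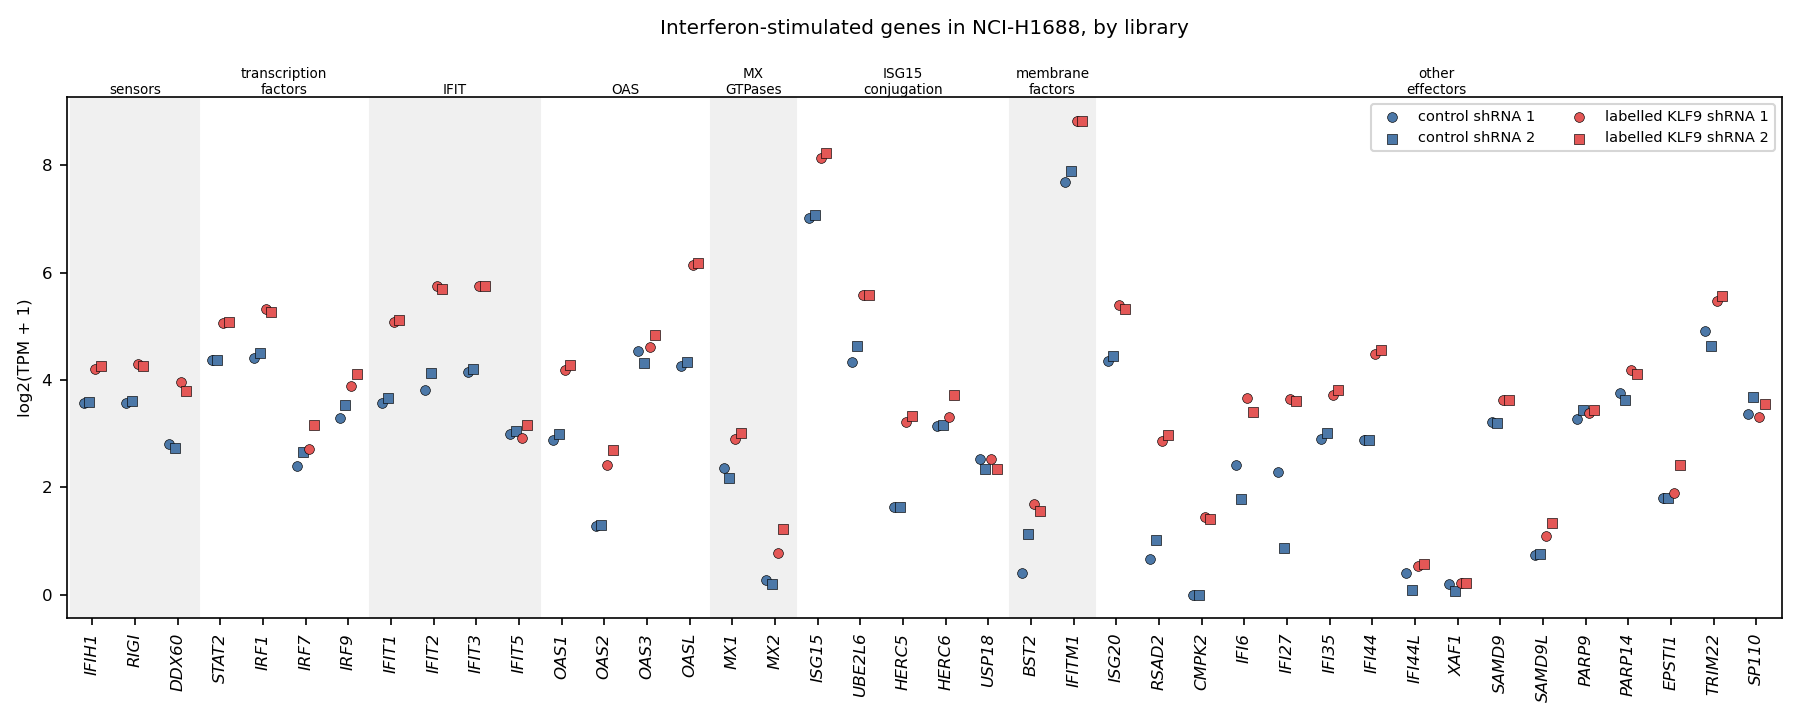
Level of each of the 40 interferon-stimulated genes in the 4 NCI-H1688 libraries, as log2(TPM + 1) on the vertical axis, with genes grouped by role on the horizontal axis and 1 symbol per library. The red symbols (labelled KLF9 shRNA) lie above the blue ones (control shRNA) for 32 of the 36 tested genes and overlap them for IFIT5, USP18, PARP9 and SP110.

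Many promoters of these genes carry the letters that ISGF3 and related factors recognise, and a few are shown with the match in capitals. The motif searched was GAAANNGAAA on both strands, in windows from 250 bases before to 50 after the start of each transcript (RefSeq, GRCh38.p14). It was present in 3.57% of all 35116 windows. By gene it was in 4.38% of 27305 genes with a window, and in 21 of the 33 members with a window (63.6%). The members with no window were IFIT2, IRF7, MX2, OAS2, OASL, TRIM22 and USP18. Among members called higher in NCI-H1688, the 6 windows with a match and the highest fold change were those of RSAD2 at chr2:6877527-6877826 (+ strand), IFI44 at chr1:78649539-78649838 (+ strand), HERC5 at chr4:88456869-88457168 (+ strand), IFIT3 at chr10:89327747-89328046 (+ strand), IFIT1 at chr10:89392373-89392672 (+ strand) and IFI6 at chr1:27672143-27672442 (- strand). For contrast these are followed by OAS1 at chr12:112906712-112907011 (+ strand), which rose and holds no match, and IFIT5 at chr10:89414318-89414617 (+ strand), picked after its values were seen because it holds 3 matches and its groups overlapped. All are written 5′ to 3′ along the gene.
RSAD2: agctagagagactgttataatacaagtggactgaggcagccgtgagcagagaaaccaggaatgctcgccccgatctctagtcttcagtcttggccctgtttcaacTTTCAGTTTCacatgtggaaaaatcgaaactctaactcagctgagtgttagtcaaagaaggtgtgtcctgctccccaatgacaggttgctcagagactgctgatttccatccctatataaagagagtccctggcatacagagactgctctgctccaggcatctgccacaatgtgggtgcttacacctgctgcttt
IFI44: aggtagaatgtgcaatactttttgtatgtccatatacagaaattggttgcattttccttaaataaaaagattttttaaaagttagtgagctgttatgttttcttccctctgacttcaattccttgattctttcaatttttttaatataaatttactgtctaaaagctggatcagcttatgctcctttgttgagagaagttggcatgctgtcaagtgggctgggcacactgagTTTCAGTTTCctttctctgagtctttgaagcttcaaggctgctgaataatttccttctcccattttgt
HERC5: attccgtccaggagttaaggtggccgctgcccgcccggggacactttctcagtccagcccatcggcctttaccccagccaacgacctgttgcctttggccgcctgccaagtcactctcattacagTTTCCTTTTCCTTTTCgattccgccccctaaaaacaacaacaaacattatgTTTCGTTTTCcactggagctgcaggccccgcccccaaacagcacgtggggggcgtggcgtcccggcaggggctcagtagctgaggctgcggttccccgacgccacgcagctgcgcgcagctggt
IFIT3: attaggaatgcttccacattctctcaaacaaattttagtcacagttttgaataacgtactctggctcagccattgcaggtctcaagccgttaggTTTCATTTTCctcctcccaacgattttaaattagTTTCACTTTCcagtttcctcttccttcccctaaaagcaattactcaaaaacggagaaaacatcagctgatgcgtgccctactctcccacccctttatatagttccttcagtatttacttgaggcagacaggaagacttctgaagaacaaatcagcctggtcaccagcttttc
IFIT1: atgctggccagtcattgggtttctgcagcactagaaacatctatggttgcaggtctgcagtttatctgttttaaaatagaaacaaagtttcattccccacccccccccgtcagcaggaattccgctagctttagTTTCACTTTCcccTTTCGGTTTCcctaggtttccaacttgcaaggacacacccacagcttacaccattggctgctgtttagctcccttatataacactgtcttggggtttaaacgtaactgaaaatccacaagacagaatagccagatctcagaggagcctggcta
IFI6: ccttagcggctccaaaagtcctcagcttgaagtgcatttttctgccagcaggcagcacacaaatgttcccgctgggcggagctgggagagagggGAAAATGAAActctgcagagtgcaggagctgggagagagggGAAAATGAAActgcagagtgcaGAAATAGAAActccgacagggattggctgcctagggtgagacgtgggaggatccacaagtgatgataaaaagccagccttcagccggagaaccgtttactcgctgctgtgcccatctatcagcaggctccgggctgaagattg
OAS1: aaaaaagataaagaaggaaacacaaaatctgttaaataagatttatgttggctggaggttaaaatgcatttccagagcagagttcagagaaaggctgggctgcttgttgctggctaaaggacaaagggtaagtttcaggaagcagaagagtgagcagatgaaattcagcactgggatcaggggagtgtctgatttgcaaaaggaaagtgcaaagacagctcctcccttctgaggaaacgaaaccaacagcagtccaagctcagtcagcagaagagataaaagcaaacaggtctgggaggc
IFIT5: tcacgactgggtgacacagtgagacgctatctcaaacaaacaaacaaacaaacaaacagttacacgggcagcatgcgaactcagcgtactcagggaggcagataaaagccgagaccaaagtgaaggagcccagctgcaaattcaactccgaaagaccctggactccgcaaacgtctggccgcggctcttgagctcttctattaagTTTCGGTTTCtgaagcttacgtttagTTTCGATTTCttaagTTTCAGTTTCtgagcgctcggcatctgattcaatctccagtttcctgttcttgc
A match that begins with TTTC is the same motif on the opposite strand, and the first 2 matches of HERC5 overlap each other. The first base of the match lay at -145 from the start in RSAD2, at -18 in IFI44, at -116 and -103 in IFIT1, and at -45, -19 and -4 in IFIT5. Among members called higher in NCI-H1688, 14 of 20 with a window held a match (70.0%), and among those not called or not tested 7 of 13 did (53.8%). The gamma-activated site, searched as TTCNNNGAA on both strands, was in 12 of the 33 members (36.4%) and in 9.38% of all genes. A match is a run of letters and not a measured binding site. The search allows exactly 2 bases between the GAAA repeats. The OAS1 window holds gaaacgaaa, with fewer bases between the repeats, which was not counted as a match.

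**Figure D2:**
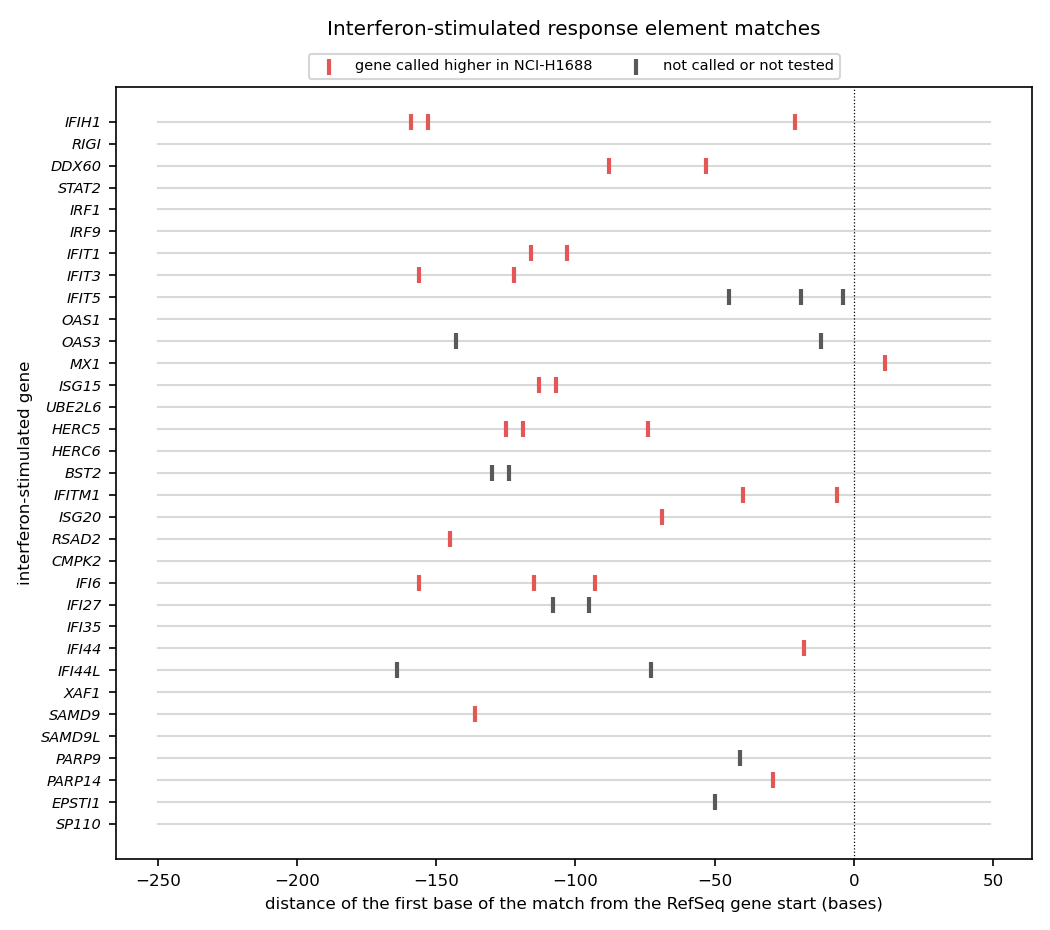
Position of each GAAANNGAAA match, on either strand, in the promoter windows of the interferon-stimulated genes; the horizontal axis is the distance in bases from the transcript start and each line is a gene. Red marks belong to genes called higher in NCI-H1688, grey marks to genes not called or not tested, and matches of both kinds occur, and that of MX1 starts 11 bases after the start.

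The RNA sensors rose, all 3 of them. IFIH1 (MDA5), which detects long double-stranded RNA, stood at 10.8 and 11.0 TPM in the controls and 17.4 and 18.1 TPM in the labelled libraries (log2 fold change 0.65, SE 0.0798, limma adjusted p = 0.0156). RIGI, which detects short RNA with a free triphosphate end, stood at 10.8 and 11.2 TPM against 18.7 and 18.2 TPM (log2 fold change 0.69, SE 0.0791, limma adjusted p = 0.0137). DDX60, a helicase related to these sensors, stood at 6.02 and 5.61 TPM against 14.6 and 12.9 TPM (log2 fold change 1.11, SE 0.110, limma adjusted p = 0.0106). In all 3 genes the labelled libraries lay above the controls with no overlap, and DDX60 had the highest ratio of them, 2.37.

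Of the transcription factors, STAT2 and IRF1 rose and IRF7 and IRF9 were not called. STAT2, the ISGF3 subunit that carries the activation domain, stood at 19.7 and 19.8 TPM in the controls and 32.4 and 33.0 TPM in the labelled libraries (log2 fold change 0.70, SE 0.0654, limma adjusted p = 0.0102). IRF1, a factor induced by interferon-gamma and by virus sensing, stood at 20.1 and 21.7 TPM against 39.3 and 37.5 TPM (log2 fold change 0.85, SE 0.0749, limma adjusted p = 0.00933). For both, the labelled libraries lay well above the controls and the replicates lay close together. IRF9, the DNA-binding subunit of ISGF3, stood at 8.75 and 10.6 TPM against 13.7 and 16.3 TPM, just outside the threshold (log2 fold change 0.59, SE 0.140, limma adjusted p = 0.0576). IRF7, the factor that amplifies interferon production, stood at 4.27 and 5.33 TPM against 5.52 and 7.91 TPM (log2 fold change 0.40, limma adjusted p = 0.251).

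The IFIT family, RNA-binding proteins that block translation of viral RNA, lies in a cluster on chromosome 10 from IFIT2 (chr10:89283694-89309276) to IFIT5 (chr10:89414586-89421001) in GENCODE 29 on GRCh38. IFIT1 stood at 10.8 and 11.7 TPM in the controls and 32.7 and 33.6 TPM in the labelled libraries (log2 fold change 1.48, SE 0.0791, limma adjusted p = 0.00436). IFIT2 stood at 13.1 and 16.5 TPM against 52.6 and 50.7 TPM (log2 fold change 1.74, SE 0.121, limma adjusted p = 0.00632). IFIT3, which stabilises IFIT1, stood at 16.8 and 17.5 TPM against 53.0 and 53.0 TPM (log2 fold change 1.57, SE 0.0650, limma adjusted p = 0.00277). These 3 rose together, each about 3-fold, with ratios of 2.94, 3.48 and 3.09. IFIT5 stood apart from its neighbours at 6.99 and 7.31 TPM in the controls and 6.52 and 7.91 TPM in the labelled libraries, with the controls lying between them (log2 fold change 0.01, SE 0.130, limma adjusted p = 0.980).

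The oligoadenylate synthetases OAS1, OAS2 and OAS3 make the messenger that activates RNase L, and OASL, which lacks that activity, enhances RIGI signalling. OASL showed the lowest adjusted p of the 36 tested genes, at 18.1 and 19.1 TPM in the controls and 69.4 and 71.6 TPM in the labelled libraries (log2 fold change 1.87, SE 0.0657, limma adjusted p = 0.00223). OAS1 (chr12:112906777-112933222) stood at 6.38 and 6.96 TPM against 17.1 and 18.3 TPM (log2 fold change 1.29, SE 0.0962, limma adjusted p = 0.00743). OAS2 stood at 1.44 and 1.47 TPM against 4.35 and 5.45 TPM (log2 fold change 1.26, SE 0.181, limma adjusted p = 0.0205). These 3 rose with no overlap of the groups. OAS3, which lies between OAS1 and OAS2 on the chromosome, was about as abundant as OASL in the controls, at 22.1 and 18.9 TPM, and stood at 23.5 and 27.5 TPM in the labelled libraries. Its labelled libraries were above the controls by little, and it was not called (log2 fold change 0.30, SE 0.122, limma adjusted p = 0.168). MX1, a dynamin-like GTPase that traps viral nucleocapsids, stood at 4.14 and 3.51 TPM against 6.47 and 7.07 TPM and rose (log2 fold change 0.69, SE 0.136, limma adjusted p = 0.0389). MX2, a related GTPase that restricts HIV, was too low to test at 0.199 and 0.140 TPM against 0.715 and 1.34 TPM.

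ISG15 is a ubiquitin-like protein that UBE2L6 (the conjugating enzyme) and HERC5 (the ligase) attach to other proteins. ISG15 was the most abundant member after IFITM1 and stood at 129 and 134 TPM in the controls and 280.2 and 298 TPM in the labelled libraries (log2 fold change 1.13, SE 0.0579, limma adjusted p = 0.00409). UBE2L6 stood at 19.1 and 24.0 TPM against 46.9 and 47.1 TPM (log2 fold change 1.10, SE 0.121, limma adjusted p = 0.0130). HERC5 stood at 2.11 and 2.08 TPM against 8.33 and 9.06 TPM (log2 fold change 1.65, SE 0.129, limma adjusted p = 0.00777). The modifier, its conjugating enzyme and its ligase all rose, each with the labelled libraries clear of the controls. HERC6, the neighbouring gene of HERC5 on chromosome 4, was not called at 7.88 and 7.93 TPM against 8.96 and 12.1 TPM (log2 fold change 0.36, limma adjusted p = 0.196). USP18, the protease that removes ISG15 and also dampens the interferon receptor, stood at 4.75 and 4.03 TPM against 4.79 and 4.08 TPM (log2 fold change 0.01, SE 0.153, limma adjusted p = 0.964). Its groups overlapped almost completely.

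IFITM1, a membrane protein that blocks entry of enveloped viruses, was the most abundant member and lies at chr11:313506-315272. It stood at 206 and 237 TPM in the controls and 451 and 455 TPM in the labelled libraries, a ratio of 2.05 (log2 fold change 1.03, SE 0.0817, limma adjusted p = 0.00777). Its exons overlap those of IFITM2 in the annotation, so reads could be split between the pair. BST2 (tetherin), which holds budding virus at the cell surface, stood at 0.328 and 1.20 TPM against 2.21 and 1.94 TPM and was not called (log2 fold change 0.85, SE 0.332, limma adjusted p = 0.157).

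Among the other effectors, 8 of 16 rose. RSAD2 (viperin), an enzyme that makes a chain-terminating nucleotide, stood at 0.577 and 1.02 TPM in the controls and 6.27 and 6.89 TPM in the labelled libraries (log2 fold change 2.09, SE 0.202, limma adjusted p = 0.0104). CMPK2, the adjacent gene, a nucleotide kinase, stood at 1.72 and 1.64 TPM in the labelled libraries and at 0 in each control, under the level tested. The 2 genes overlap in part of their exons on opposite strands, and the use of strand in counting is not stated, so reads in the shared stretch cannot be told apart. IFI44, an interferon-induced protein on chromosome 1, stood at 6.32 and 6.39 TPM against 21.5 and 22.7 TPM (log2 fold change 1.65, SE 0.0847, limma adjusted p = 0.00409). IFI44L, its neighbour, was too low to test, at 0.315 and 0.0539 TPM against 0.446 and 0.490 TPM. IFI6, a mitochondrial and endoplasmic reticulum protein that limits apoptosis, stood at 4.33 and 2.46 TPM against 11.8 and 9.63 TPM (log2 fold change 1.44, SE 0.248, limma adjusted p = 0.0290). RSAD2, IFI44 and IFI6 were each over 3-fold higher, and no control reached a labelled library in any of them. RSAD2 had a control mean of 0.797 TPM and was tested only through its labelled libraries, so its direction carries no support.

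The remaining effectors that rose did so by less. ISG20, an exonuclease that degrades viral RNA, stood at 19.6 and 20.9 TPM in the controls and 41.4 and 39.2 TPM in the labelled libraries (log2 fold change 0.96, SE 0.0743, limma adjusted p = 0.00766). IFI35, a leucine zipper protein, stood at 6.45 and 7.06 TPM against 12.1 and 13.0 TPM (log2 fold change 0.81, SE 0.102, limma adjusted p = 0.0164). TRIM22, a ubiquitin ligase that restricts several viruses, stood at 29.1 and 23.9 TPM against 43.5 and 46.5 TPM (log2 fold change 0.75, SE 0.112, limma adjusted p = 0.0225). In all 3 genes the groups were separate. PARP14, an ADP-ribosyltransferase, stood at 12.6 and 11.4 TPM against 17.3 and 16.2 TPM (log2 fold change 0.46, SE 0.0938, limma adjusted p = 0.0422). SAMD9, a restriction factor for poxviruses, stood at 8.29 and 8.22 TPM against 11.4 and 11.4 TPM (log2 fold change 0.42, SE 0.0881, limma adjusted p = 0.0434). Both were near the threshold. IFI27, a mitochondrial protein, was just outside it at 3.86 and 0.826 TPM against 11.4 and 11.2 TPM (log2 fold change 2.05, SE 0.480, limma adjusted p = 0.0552). Its 2 controls differed more than 4-fold, which is wide beside the spread of the labelled libraries. SAMD9L, PARP9, EPSTI1 and SP110 were not called, with log2 fold changes of -0.09 to 0.46, and XAF1 was too low to test, at 0.153 and 0.0408 TPM against 0.155 and 0.154 TPM.

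**Figure D3:**
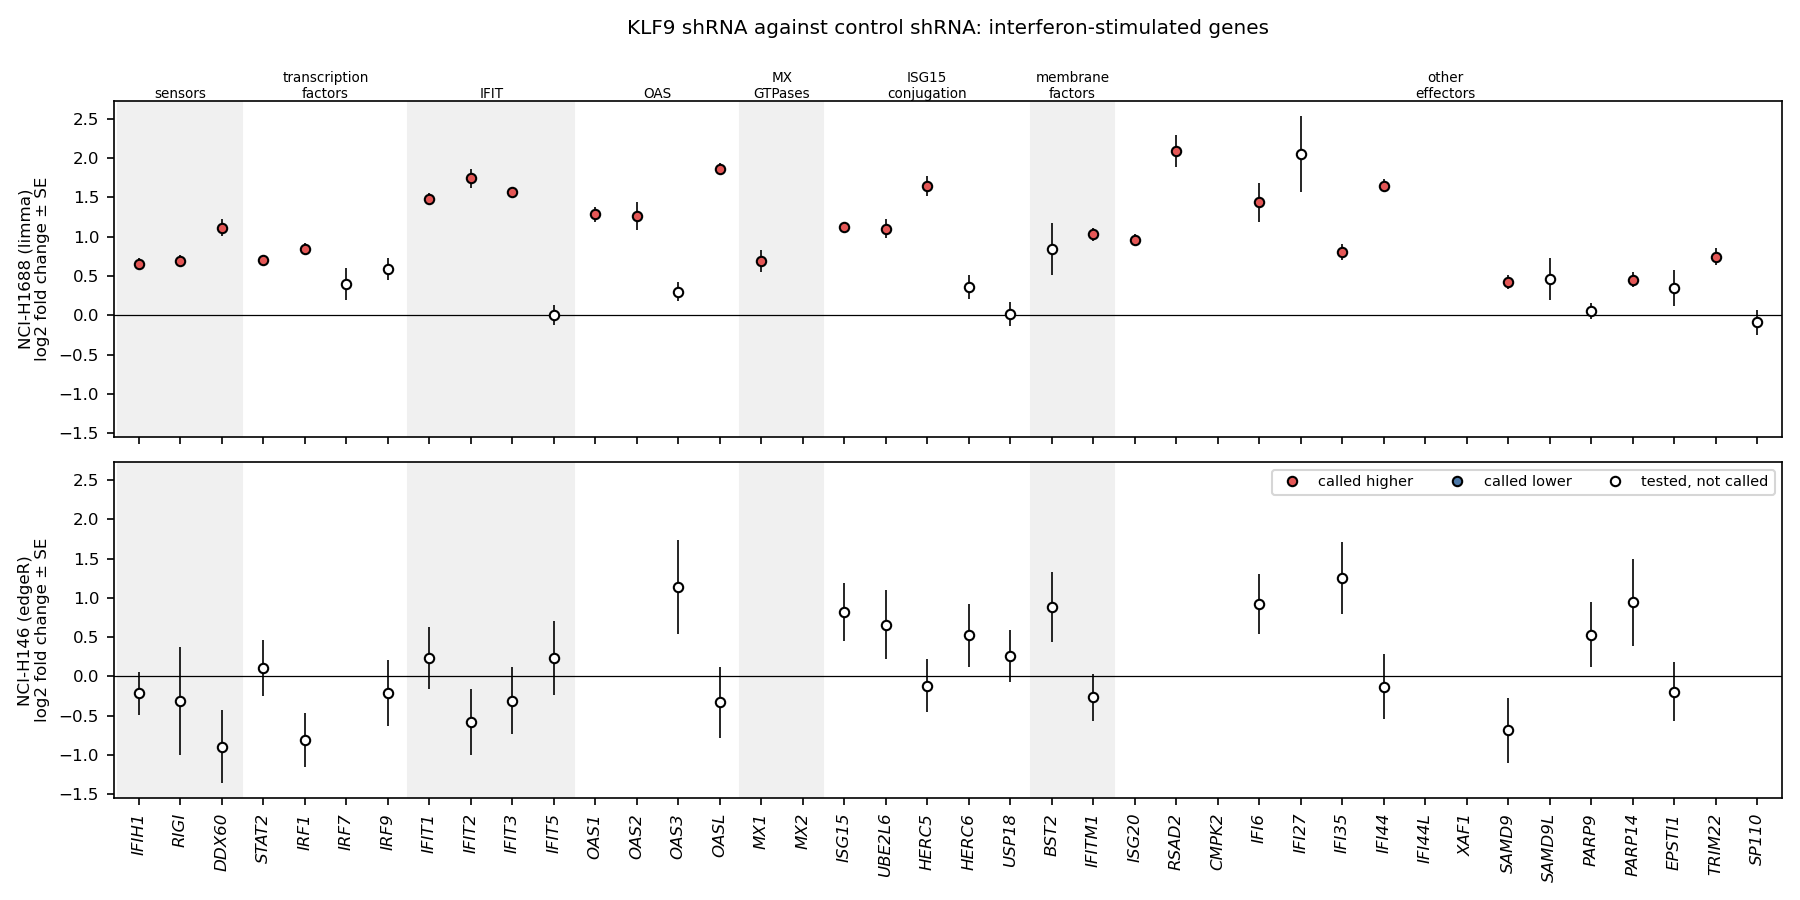
Log2 fold change of each tested interferon-stimulated gene, KLF9 shRNA against control shRNA, with its standard error as the bar; the upper panel is NCI-H1688 (limma, on log2(TPM + 1)) and the lower NCI-H146 (edgeR), and filled points passed an adjusted p under 0.05. In NCI-H1688 the median is 0.83 with 24 filled points, and in NCI-H146 the points scatter around 0 with a median of -0.01 and 0 filled points.

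In NCI-H146, where KLF9 fell, no common movement of interferon-stimulated genes was seen. Of the 40 genes, 26 were tested, 11 had a row but too few counts, and OAS2, XAF1 and SAMD9L had no row. None of the 26 was called by edgeR, against 8.01% of the 13129 genes tested called higher and 9.12% lower. At unadjusted p under 0.05 edgeR gave 4 (3 higher, 1 lower), DESeq2 called 0 with 4 at that level, and limma-voom called 0 with 2. Of all genes tested, 33.6%, 31.7% and 32.9% were under that value in the 3 tools. Both KLF9 shRNA libraries lay above both controls for 7 of the 26 (30.6% of all genes tested) and below both for 3 (31.9%), and for 16 the groups overlapped. The 7 include OAS3, with 4 and 14 counts in the controls, and PARP14, with 12 and 7. Both were tested only through their KLF9 shRNA libraries, so their direction carries no support. Over all genes tested, groups were separate in either direction for 62.5%. The median log2 fold change was -0.01, and that of all genes tested was 0.01. Summed over the members with a row, the level was 249 and 242 CPM in the controls and 261 and 222 CPM with KLF9 shRNA. Per kilobase of exon, IFITM1 was again the most abundant in the controls at 59.6 CPM, followed by IFI6 at 12.9, IFIH1 at 10.2 and ISG15 at 7.28.

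**Figure D4:**
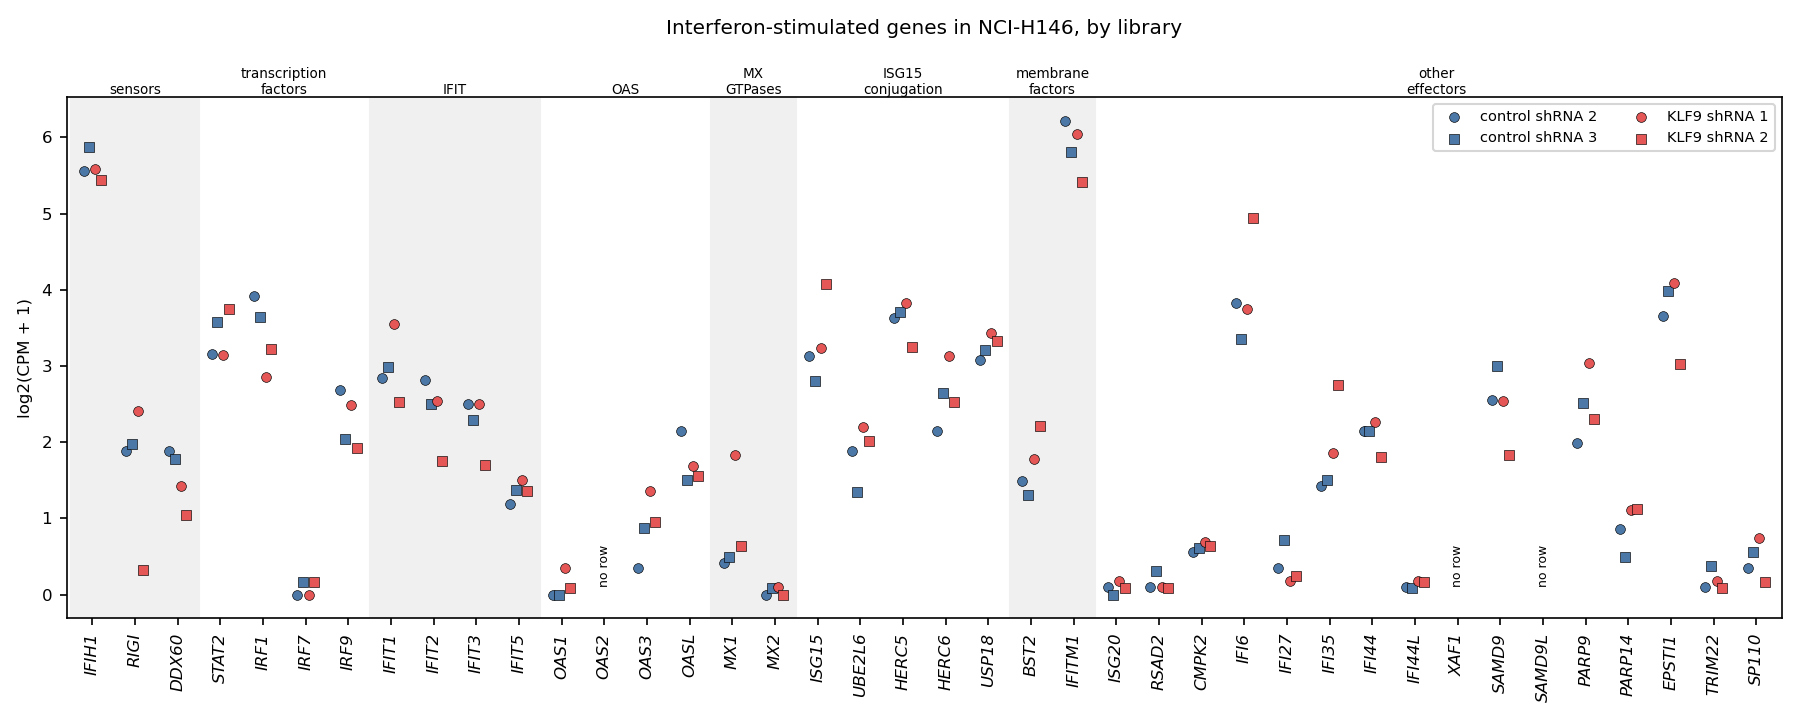
Level of each interferon-stimulated gene in the 4 NCI-H146 libraries, as log2(CPM + 1) on the vertical axis, with genes grouped by role and 1 symbol per library. Blue (control shRNA) and red (KLF9 shRNA) symbols overlap for 16 of the 26 tested genes, and the 2 red symbols lie far apart for RIGI (64 and 4 counts) and IFI6 (184 and 478 counts).

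The 2 KLF9 shRNA libraries of NCI-H146 differed from each other in these genes. Their levels were more than 2-fold apart in 26.9% of the 26 tested members, against 10.9% of all genes tested, whereas the controls were that far apart in 3.85% and 3.40%. RIGI had 40 and 50 counts in the controls and 64 and 4 counts with KLF9 shRNA. ISG15 had 115 and 101 counts in the controls and 124 and 253 with KLF9 shRNA. IFI6 had 195 and 156 counts in the controls and 184 and 478 with KLF9 shRNA. So the second KLF9 shRNA library was lowest for the sensor RIGI and highest for ISG15 and IFI6, while the first lay among or above the controls. IFIT1 had 92 and 117 counts in the controls and 158 and 76 with KLF9 shRNA, one above and one below both controls. MX1, too low to test with all libraries, had 5 and 7 counts against 38 and 9. Without the first KLF9 shRNA library the median log2 fold change of the tested members was -0.42 in edgeR, and without the second it was 0.28. Over all genes tested, those fits had medians of -0.03 and -0.02. Without control replicate 2 or 3 the members had medians of 0.13 and 0.30, and all genes tested had 0.05 and 0.04. Each of these fits left a single library in 1 group.

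Single members of NCI-H146 nearest to a call were IFI35, IFI6 and IRF1. IFI35 stood at 1.68 and 1.83 CPM in the controls and 2.64 and 5.74 CPM with KLF9 shRNA (log2 fold change 1.25, SE 0.462, edgeR adjusted p = 0.0695). IFI6 stood at 13.1 and 9.21 CPM against 12.5 and 29.8 CPM (log2 fold change 0.92, SE 0.384, edgeR adjusted p = 0.103). IRF1 stood at 14.1 and 11.5 CPM against 6.23 and 8.36 CPM (log2 fold change -0.81, SE 0.340, edgeR adjusted p = 0.106). IFI35 and IRF1 had separate groups, in opposite directions, and IFI6 did not. DDX60 stood at 2.70 and 2.42 CPM against 1.69 and 1.06 CPM (log2 fold change -0.89, edgeR adjusted p = 0.183). Of the well-expressed members, IFITM1 stood at 73.5 and 55.2 CPM against 65.1 and 41.8 CPM (log2 fold change -0.27, SE 0.298, edgeR adjusted p = 0.557). IFIH1 stood at 46.2 and 57.7 CPM against 47.2 and 42.4 CPM (log2 fold change -0.21, SE 0.277, edgeR adjusted p = 0.619). The groups overlapped in both. RSAD2, the member with the highest ratio in NCI-H1688, had 1 and 4 counts in the controls and 1 and 1 with KLF9 shRNA, and OAS1 had 0 in both controls and 4 and 1.

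Set side by side, the 24 members that rose in NCI-H1688 were mixed in NCI-H146. Of these, 18 were tested there, with a log2 fold change above 0 in 7 and below 0 in 11, and 6 were not tested. The 7 include PARP14, tested there only through its KLF9 shRNA libraries. OASL had a log2 fold change of 1.87 in NCI-H1688 and -0.33 in NCI-H146, IFIT2 had 1.74 and -0.58, and ISG15 had 1.13 and 0.82. The tables were normalized separately, so the difference between the lines was not tested.

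Other genes of the interferon pathway, 53 in all, were read from the same fits. In NCI-H1688, 37 were tested, and 12 rose and 0 fell, against 6.36% and 9.67% of all genes tested. At unadjusted p under 0.05 limma gave 22 higher and 0 lower, against 34.0% of all genes in either direction. The median log2 fold change was 0.33. Both labelled libraries lay above both controls for 25, against 28.9% of all genes, and below both for 3, against 33.8%. The 12 include 1 interferon gene, and the 22 and the 25 include 4 each, with the limit given below. With any 1 library left out 0 passed. Of the 11 interferon genes, 4 were tested. IFNL1, a type III interferon, stood at 0.933 and 0.911 TPM in the controls and 6.04 and 6.76 TPM in the labelled libraries (log2 fold change 1.94, SE 0.164, limma adjusted p = 0.00902). IFNB1, a type I interferon, stood at 0.441 and 0.322 TPM against 2.13 and 1.82 TPM (log2 fold change 1.11, SE 0.255, limma adjusted p = 0.0530). IFNL2 and IFNL3, near-identical copies whose reads could be split between them, had log2 fold changes of 1.01 and 1.21 (limma adjusted p = 0.0976 and 0.0625). All 4 had control means under 1 TPM and were tested only through their labelled libraries, so their direction carries no support. IFNE, which was too low to test, stood at 0.115 and 0.277 TPM in the controls and 0 and 0.0596 TPM in the labelled libraries. IFNA1, IFNA2, IFNA5, IFNW1 and IFNG were listed at 0 in all 4 libraries.

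Among receptors, the interferon-gamma receptor subunits IFNGR1 and IFNGR2 rose, with ratios of 1.48 and 1.23, and so did IL10RB, the shared subunit of the type III receptor, with a ratio of 1.47 (limma adjusted p = 0.0155, 0.0458 and 0.0477). Of the kinases and transducers, STAT3 rose (ratio 1.25, limma adjusted p = 0.0360). DHX58 (LGP2), a regulator of the RNA sensors, rose from 2.76 and 3.33 TPM to 8.79 and 8.33 TPM (log2 fold change 1.24, limma adjusted p = 0.0127). TLR3, the endosomal sensor of double-stranded RNA, rose from 2.82 and 2.54 TPM to 5.68 and 5.39 TPM (log2 fold change 0.83, limma adjusted p = 0.0277). STING1, the adaptor for cytosolic DNA sensing, and TRIM25, a ligase that acts on RIGI, rose with ratios of 1.31 and 1.23 (limma adjusted p = 0.0394 and 0.0395). In these 4 sensors and adaptors both labelled libraries lay above both controls. IFNGR2, IL10RB, STAT3, STING1 and TRIM25 all missed the threshold without a filter, without a trend and with the replicate block (adjusted p 0.0580 to 0.112). EIF2AK2 (PKR) and ADAR, also interferon-inducible, were not called, with log2 fold changes of -0.30 and -0.04. SOCS3, a feedback inhibitor of cytokine receptors, rose with a ratio of 1.39 (limma adjusted p = 0.0209). The chemokine gene CXCL10 stood at 2.54 and 2.46 TPM against 14.0 and 17.4 TPM (log2 fold change 2.25, SE 0.142, limma adjusted p = 0.00557). CXCL11 stood at 2.93 and 3.94 TPM against 15.6 and 14.6 TPM (log2 fold change 1.87, SE 0.150, limma adjusted p = 0.00784). Both chemokines, which recruit T cells through CXCR3, rose over 4-fold, while GBP1, GBP3 and NLRC5 of the same group were not called.

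**Figure D5:**
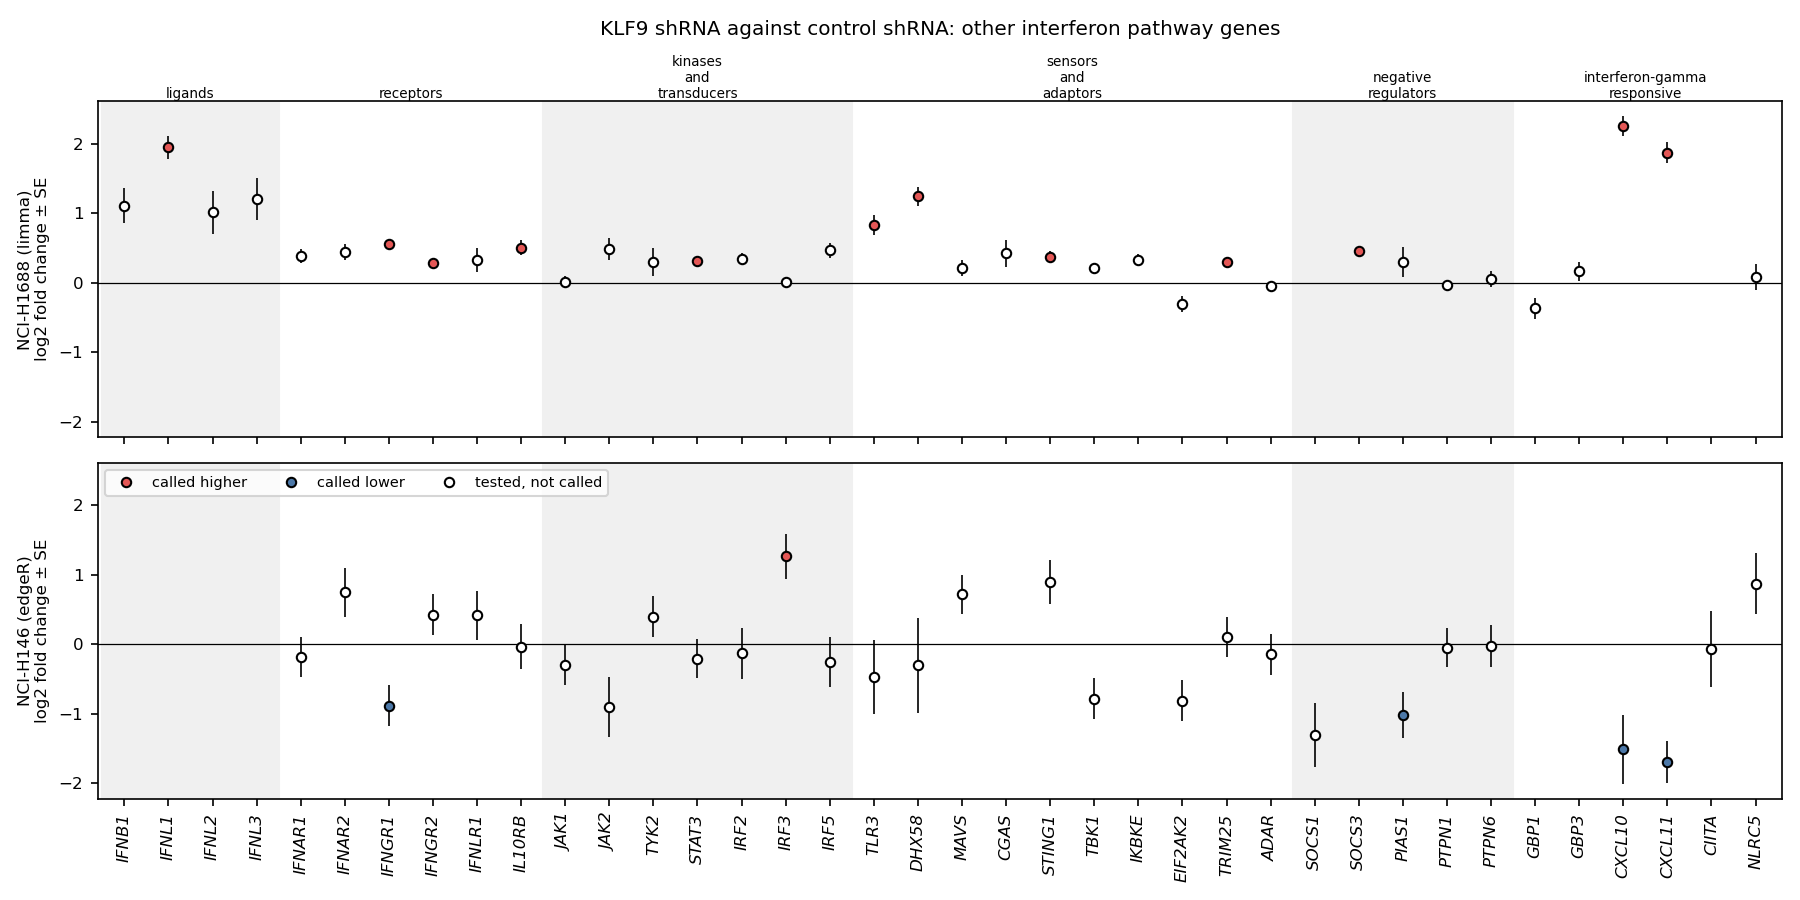
Log2 fold change with its standard error for the tested interferon pathway genes reported outside the 40, by role, in NCI-H1688 (upper, limma) and NCI-H146 (lower, edgeR). Red points were called higher and blue points lower; CXCL10 and CXCL11 are red at 2.25 and 1.87 in NCI-H1688, and blue at -1.51 and -1.69 in NCI-H146.

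In NCI-H146, 30 of the 53 were tested, 1 rose and 4 fell, a share near the 17.1% called over all genes tested, so the count is not a result about the pathway. CXCL11 stood at 45.4 and 40.1 CPM in the controls and 14.0 and 12.5 CPM with KLF9 shRNA (log2 fold change -1.69, SE 0.298, edgeR adjusted p = 0.00321). CXCL10 stood at 3.50 and 2.12 CPM against 1.15 and 0.811 CPM (log2 fold change -1.51, SE 0.488, edgeR adjusted p = 0.0432). IFNGR1 stood at 44.1 and 35.3 CPM against 23.7 and 19.3 CPM (log2 fold change -0.88, SE 0.296, edgeR adjusted p = 0.0493). In all 3 the groups were separate. With all libraries kept, CXCL10 missed the threshold in DESeq2 (adjusted p = 0.0905), limma-voom (0.0580) and edgeR without a filter (0.0641). IFNGR1 missed it in limma-voom (adjusted p = 0.0573), with RLE factors (0.0514) and without a filter (0.0687). PIAS1, an inhibitor of STAT signalling, fell by 1.01 on the log2 scale (edgeR adjusted p = 0.0464). IRF3, the factor that TBK1 activates after RNA or DNA sensing, rose from 15.8 and 15.9 CPM to 28.0 and 48.1 CPM (log2 fold change 1.26, SE 0.322, edgeR adjusted p = 0.0165). Its groups did not overlap, and the second KLF9 shRNA library was the highest. Without control replicate 2 all 5 calls were lost, with adjusted p of 0.124 for CXCL11 and 0.468 for CXCL10, and without control replicate 3 CXCL11 alone passed (adjusted p = 0.00832). Without the second KLF9 shRNA library CXCL10, IFNGR1 and PIAS1 were lost, at adjusted p 0.107, 0.0545 and 0.147. Of the 11 interferon genes, IFNB1, IFNL1 and IFNL2 had a row, each with 0 to 2 counts per library.

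Markers of cell type moved in both lines. In NCI-H1688 the neuroendocrine regulators INSM1 and NEUROD1, which many small cell lung cancers express, were listed at 0. The keratins KRT8 and KRT18 fell, the epithelial genes ELF3 and CDH1 rose, and EPCAM and KRT19 were not called. COL1A1, the only fibroblast marker tested in that line, rose (limma adjusted p = 0.0488). Of 18 leukocyte markers 11 were above 0. Their summed level was 21.1 and 24.2 TPM in the controls and 36.1 and 35.4 TPM in the labelled libraries. Of the 3 tested, CD14 and LAPTM5 rose and CD68 was not called. CD14 had a control mean of 0.632 TPM and was tested only through its labelled libraries, so its direction carries no support. The pan-leukocyte marker PTPRC was at most 0.0317 TPM, and CD2, MS4A1, CD163, FCGR3A, TYROBP and NKG7 were listed at 0. In NCI-H146 the neuroendocrine granule genes CHGA, CHGB, SYP and SCG3 rose, while INSM1 had no row and NEUROD1 had 9 and 11 counts in the controls and 6 and 2 with KLF9 shRNA. Of other markers, CDH1 rose, and CD68 and COL1A1 fell (edgeR adjusted p = 0.0193, 0.0212 and 0.00827). CHGA had 3 and 9 counts in the controls and CDH1 had 7 and 14. Both were tested only through their KLF9 shRNA libraries, so their direction carries no support. COL3A1 and PDGFRB, the other fibroblast markers tested, were not called, and their KLF9 shRNA libraries lay above the controls. PTPRC had 197 and 205 counts in the controls and 153 and 166 with KLF9 shRNA, and the summed leukocyte markers (10 of 18 with a row) were 23.4 and 22.6 CPM in the controls and 16.8 and 16.9 CPM with KLF9 shRNA. The part of these shifts in the interferon-stimulated genes was not tested.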

How the data were processed

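Poly(A) RNA from 8 libraries, in 4 groups of 2, was measured. The authors deposited whole-number counts per gene for NCI-H146, and TPM for NCI-H1688. STAR 2.5.1, DESeq2 and GRCh38 (hg38) appear in the submitters' processing notes, with no role stated. The counting program, its annotation and its use of strand are not given in the sources used here. Exons of 13 of the 40 genes overlap another gene in GENCODE 29.

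Each line was fitted alone, since the tables were normalized separately. For the counts, edgeR 4.0.16 in R 4.3.3 was used (quasi-likelihood F test, TMM, filterByExpr; 13129 genes), with the SE taken as the log2 fold change over the root of F. For the TPM, limma 3.58.1 (intensity trend) was run on log2(TPM + 1) over 14754 genes whose mean reached 1 TPM, a scale that understates changes of low genes. Ratios are of mean TPM over 2 libraries per group. TPM keep no depth of their own. The commonest step between low values put the worth of 1 read at 0.930 to 1.033 of that in the first control. Only 42 to 88 of the 4439 to 4656 genes compared were at that step, so it is a weak guide to depth. Of TPM rows sharing a gene name, 1453 were dropped. Benjamini-Hochberg adjustment ran over all genes tested, with calls under 0.05. Both fits were tested on simulated data. Alternatives were DESeq2 1.42.0, limma-voom, other scalings, pseudocounts and filters, a replicate block, and each library left out.

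The members and lists were chosen with earlier results of these data known. By rule every member called in either line is given in every library, the other members by range or value, and up to 12 other pathway genes with the lowest adjusted p by value. Results of some genes are not reported here. IL10RB, PIAS1, IFNB1, IFNL2, IFNL3 and the uncalled genes given as values were added after their values were seen.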

Additional observations from a re-analysis of the deposited data

Results flagged for a closer look

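Several genes had both KLF9 shRNA libraries on one side of both controls in NCI-H1688 and on the other side in NCI-H146. Groups were separate in either direction for 62.7% of all genes tested in NCI-H1688 and 62.5% in NCI-H146. The share of all genes on opposite sides was not counted, so the list is not a result about these genes. The difference between the lines was not tested, since the tables were normalized separately. KLF9, tested in NCI-H1688 only through its labelled libraries, had a log2 fold change of 0.92 there and -1.17 in NCI-H146. Among the interferon-stimulated genes, DDX60 had 1.11 and -0.89, IRF1 had 0.85 and -0.81, and SAMD9 had 0.42 and -0.69. Among the other pathway genes, IFNGR1 had 0.56 and -0.88, IFNAR1 had 0.38 and -0.18, JAK2 had 0.48 and -0.91, IRF5 had 0.47 and -0.25, TBK1 had 0.21 and -0.78, TLR3 had 0.83 and -0.47, CXCL10 had 2.25 and -1.51, and CXCL11 had 1.87 and -1.69. Other genes tested in both lines had both KLF9 shRNA libraries above both controls in each. Among the interferon-stimulated genes these were OAS3, ISG15, UBE2L6, BST2, IFI35 and PARP14. BST2 in NCI-H1688, and OAS3 and PARP14 in NCI-H146, were tested only through the KLF9 shRNA libraries. Among the other pathway genes they were IFNAR2, IFNGR2, IFNLR1, MAVS and STING1, while EIF2AK2 lay below in both lines. With groups of 2 no library could be judged as standing apart within its group.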

How the results depend on the processing

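In NCI-H1688 the median log2 fold change of the members was 0.88 with a pseudocount of 0.1, 0.79 without a filter and 0.80 after quantile normalization, against 0.83. Genes called numbered 943 without a filter, 834 without a trend (488 higher, 346 lower, against 939 and 1427) and 1218 with a replicate block, against 2366, and quantile normalization split them into 1102 higher and 1191 lower. Pathway genes called higher numbered 6, 6 and 5 under those 3 settings, against 12. Members called in both the full fit and the alternative numbered 24 with the other pseudocount, 24 with TMM factors, 23 with quantiles, 21 at 5 TPM, 21 with the replicate block, 19 without a trend and 18 without a filter. The replicate numbers share only a number: same-numbered deviations correlated at -0.01 across 14754 genes. No paired analysis was possible in NCI-H146 because its groups share fewer than 2 numbers. With 1 library left out in turn, the remaining lone sample being assumed to vary like the other group, genes called ranged from 0 to 24, members called higher from 0 to 0, pathway genes called higher from 0 to 0, and the median from 0.80 to 0.90. In NCI-H146 pathway genes called higher numbered 2 in DESeq2, and those called lower 2 in limma-voom and 1 without a filter, against 1 and 4. With 1 library left out, genes called ranged from 51 to 5026, members higher from 0 to 3, members lower from 0 to 4, the median from -0.42 to 0.30, pathway higher from 0 to 5 and lower from 0 to 6. Of single genes, 37 NCI-H1688 values and 8 NCI-H146 values lost their call with all libraries kept, and none of the called genes changed sign. With a library left out, 144 NCI-H1688 values and 14 NCI-H146 values lost their call, and again none of the called genes changed sign. The members lost were MX1, PARP14 and SAMD9 under the block, these with IFI6 and TRIM22 without a trend, these with OAS2 without a filter, and SAMD9 with quantiles. At 5 TPM, MX1 missed the threshold (adjusted p = 0.0570), OAS2 and RSAD2 were not tested, and IFI27 and IRF9 passed. Of pathway genes in NCI-H1688, TLR3 also missed it without a filter and with the block (0.0894, 0.0609), SOCS3 without a trend and with the block (0.0580, 0.0529), IFNGR1 without a trend (0.0558) and IL10RB with quantiles (0.0555). In NCI-H146, PIAS1 missed it without a filter (0.0733). Members not called changed sign in some setting for 4 genes in NCI-H1688 and 10 in NCI-H146. The cause of these shifts was not tested, beyond the smaller number of libraries or genes in a setting. Low counts in NCI-H146 and the lack of depth in TPM limit the lowest genes.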

Other observations

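Outside the 40 genes, the GAAANNGAAA motif was in the promoter window of 5.33% of 638 genes called higher in NCI-H1688, 2.90% of 1103 called lower and 3.72% of 8165 tested and not called. The interferon-gamma responsive gene GBP2, under the level tested in NCI-H1688, stood at 0.0759 and 0.111 TPM in the controls and 0.938 and 1.48 TPM in the libraries labelled KLF9 shRNA. In NCI-H146 it had 11 and 6 counts in the controls and 5 and 2 with KLF9 shRNA.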
